A study of Mus musculus with 144 samples.

Results

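The aryl hydrocarbon receptor (AHR) is a ligand-activated transcription factor that waits in the cytosol in a complex with heat shock protein 90 (HSP90) and the co-chaperone p23. Once bound by the dioxin TCDD (2,3,7,8-tetrachlorodibenzo-p-dioxin), a persistent high-affinity ligand, it enters the nucleus, pairs with its partner ARNT and binds dioxin response elements (DREs), whose core is GCGTG. Targets of that pair include genes whose products switch AHR off, so the pathway carries its own brake, and the liver is a main site of its transcriptional response. The 8 genes described here, of 55359 in the deposited counts, encode this machinery. They are grouped by function with no measured value in the rule, though the list was set with earlier results of these data known. They are the receptor *Ahr*, its partner *Arnt*, the repressors *Ahrr* and *Tiparp*, the chaperones *Hsp90aa1* and *Hsp90ab1*, the p23 gene *Ptges3*, and *Hif1a*, which encodes the hypoxia factor that shares ARNT as a partner.

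RNA-Seq was carried out on primary hepatocytes isolated from male mice (age label 28 days), labelled wild-type (WT; strain C57BL/6NCrl) or DRE-null (PkmΔDRE; strain Pkm-delta-DRE). PkmΔDRE mice lack, in the whole body, the GCGTG core within an intron of *Pkm*, the pyruvate kinase gene, through CRISPR editing, and were backcrossed to C57BL/6N. Cells of both labels attached in serum, were kept in medium with insulin, transferrin, selenium and dexamethasone, received 10 nM TCDD or the DMSO vehicle (0 nM TCDD), and were harvested at 9 times: 2, 4, 8 and 12 h, then 24 and 48 h, and lastly 72, 96 and 120 h. Each of the 36 groups of label, treatment and hour holds 4 libraries, numbered here as replicates 1 to 4 in the order of deposit, each with 13588848 to 30719161 read pairs counted on genes (median 18011825). No label ties a library to an animal, isolation or batch, so p-values measure the spread between these libraries, which may be technical. Hepatocyte markers were present throughout: *Alb* (albumin) was detected in all of them, and *Cyp2e1*, a cytochrome P450 of mature hepatocytes, was at 0 in 4.

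The targeted gene, *Pkm*, moved against what the labels name. At 8 h under the PkmΔDRE label its 4 TCDD libraries held 116.1, 120.1, 128.1 and 172.3 CPM (counts on the gene over the scaled library total, times 1000000) and its vehicle libraries 41.2, 51.1, 58.95 and 90.01 CPM, a log2 fold change of 1.24 ± 0.23 (SE), while under the WT label the change was -0.49 ± 0.25. TCDD libraries labelled PkmΔDRE also lay wholly above vehicle at 12, 24 and 48 h (1.69, 1.34 and 0.97), where the changes under the WT label were 0.17, 0.01 and -0.03. None of these was called by edgeR. For *Pkm* and *Cyp1a1*, the 2 genes that checked the labels, DESeq2 made 11 calls in 18 tests under the PkmΔDRE label, where edgeR made 6. Under the WT label each made 5 in 18. As *Cyp1a1* had 9 tests per label, some of the 11 were of *Pkm*. Calls by edgeR for the 2 genes outnumbered those of *Cyp1a1* (given below), so at least 1 was of *Pkm*. At 96 h under the WT label its TCDD libraries held 128.5, 165.3, 198.4 and 206.9 CPM. They lay wholly below vehicle, at 276.1, 293.3, 307.6 and 359.8 CPM, and the share of all genes in that order is not given. The rise from 8 to 48 h lay under the label that names the deletion, so groups are given by the labels of their libraries and every direction below holds for the labels only. In addition, 6 libraries stood apart from their groups. *Cyp1a1*, the classical AHR target, was at 3252 CPM in replicate 1 of vehicle at 48 h under the WT label against 1.29 to 2.36 CPM in the rest of its group, and at 1640 CPM in replicate 3 of vehicle at 96 h against 17.3 to 108.9 CPM. Under the same label it was at 1.36 CPM in replicate 4 of TCDD at 2 h against 6.25 to 28.6 CPM, and at 27.6 CPM in replicate 4 of TCDD at 72 h against 3461 to 6624 CPM. Under the PkmΔDRE label, replicate 4 of vehicle at 4 h and replicate 4 of vehicle at 96 h each correlated best with the other's hour. All remained in the tests, and most results that rest on them are given with and without them.

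As the AHR-ARNT pair binds DREs, the 250 bases before the start site are shown for the genes whose response to TCDD was largest, from RefSeq on GRCm38.p6. In each, capitals mark the core GCGTG, or CACGC where the core lies on the other strand, and the sequence is printed 5′ to 3′ on the strand of the gene. Entries were found for 5 of the 8 genes.
*Ahrr*, chr13:74292332-74292581, minus strand: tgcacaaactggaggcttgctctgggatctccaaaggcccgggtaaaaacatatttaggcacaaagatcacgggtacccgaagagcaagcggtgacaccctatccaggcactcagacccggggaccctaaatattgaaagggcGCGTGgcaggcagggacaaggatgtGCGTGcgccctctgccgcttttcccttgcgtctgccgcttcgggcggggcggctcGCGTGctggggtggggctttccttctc
*Tiparp*, chr3:65528197-65528446, plus strand: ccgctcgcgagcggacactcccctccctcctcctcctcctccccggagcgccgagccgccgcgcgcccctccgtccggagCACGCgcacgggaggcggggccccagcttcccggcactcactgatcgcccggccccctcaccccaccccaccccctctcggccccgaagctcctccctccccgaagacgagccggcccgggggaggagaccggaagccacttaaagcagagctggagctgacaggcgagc
The *Ahrr* window held 3 cores, the nearest to the start with first bases 82 and 27 bases before it, a number of cores reached or passed by 2.8% of the 27025 promoter windows of that length. The *Tiparp* window held 1 core, 170 bases before the start, as did the *Arnt* window, 29 bases before it, and 28.2% of all windows hold at least 1. The *Ptges3* window held 2 (8.71% of windows hold at least 2), and the *Hif1a* window held 0. Both strands were searched, and a match of letters is a description, not a binding site.

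Under TCDD the repressor genes rose and the rest of the machinery mostly did not pass the test. A gene was called at an adjusted p under 0.05 (quasi-likelihood test of edgeR, Benjamini-Hochberg adjustment across every gene tested) and a fold change of at least 1.5 against the time-matched vehicle libraries. Of 67 tests of the 8 genes over the 9 hours under the WT label, 11 were called, all higher, against 5.98% of 116820 tests of all genes. Under the PkmΔDRE label 6 of 69 were called, all higher, against 0.281% of 116189. Of the 17 calls, 13 were *Ahrr* or *Tiparp*, and the other 4 were *Hsp90aa1*, *Ptges3* and *Hif1a* under the WT label at 8 h and *Hsp90aa1* under that label at 96 h. *Ahrr* was tested at 4 of 9 hours under the WT label (3 called) and at 6 of 9 under the PkmΔDRE label (4 called). No vehicle library held more than 10 counts of it, so it passed the filter on low counts only through its TCDD libraries. Its calls could thus only be higher, and its entry into these counts was fixed in part by the response. No member was called at 2 or 4 h, nor under the WT label at 12, 48 or 72 h, nor under the PkmΔDRE label at 8, 12 or 24 h, where 0% of all genes tested were called at 2 and 4 h, 0.0321%, 0.00763% and 0% at 12, 48 and 72 h under the WT label, and 0.106%, 0.024% and 0.016% at 8, 12 and 24 h under the PkmΔDRE label. In these 10 comparisons 15 of 73 tests of members had an unadjusted p under 0.05, and DESeq2 called 8. At 2 h under the PkmΔDRE label, 4 of the 7 members tested had an unadjusted p under 0.05, and DESeq2 called 2 of them, *Tiparp* and *Ahr*. Over all genes DESeq2 called 26 at 12 h and 28 at 48 h under the WT label. It called 37, 59 and 11 at 8, 12 and 24 h under the PkmΔDRE label. The share of all genes at an unadjusted p under 0.05 is not given, so those counts of members have no background. Nor is the number of all genes that DESeq2 called at 2 h given, so its 2 calls there have none either.

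**Figure D1:**
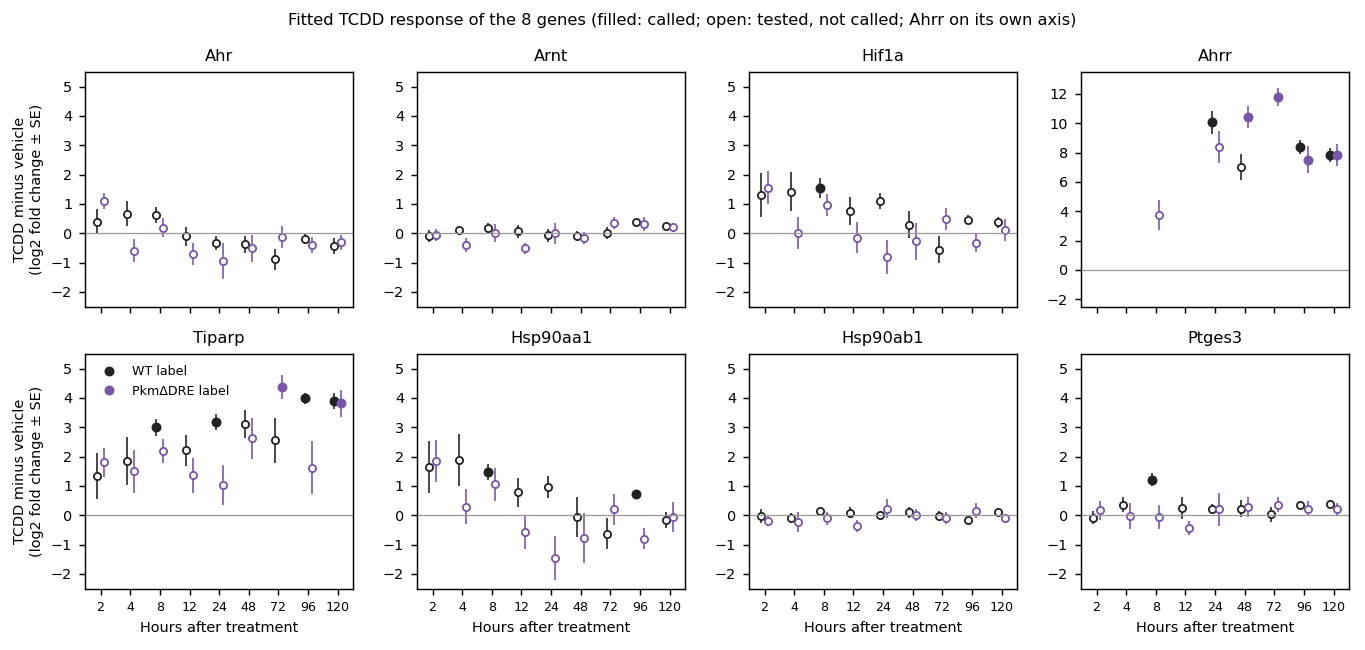
Log2 fold change of each gene under TCDD against time-matched vehicle (y axis, log2 scale) over hours of treatment (x axis) under the WT label (black) and the PkmΔDRE label (purple), with 4 libraries per group. Error bars are standard errors, filled points are called and open points are not, and Ahrr is drawn on its own axis. Tiparp lies above 0 at 9 of 9 hours under both labels, and called points sit almost all in the panels of Ahrr and Tiparp.

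*Ahrr* (ENSMUSG00000021575) encodes the AHR repressor, a relative of AHR that competes for ARNT and lacks a transactivation domain. It was close to silent without TCDD. Its median over all libraries was 0.0202 CPM per kilobase of exons, the lowest of the 8 genes, and 59 libraries were at 0. In vehicle under the WT label, all 4 libraries were at 0 at each of 2, 4 and 24 h, and the highest of the remaining hours was 0.360 CPM at 12 h. All vehicle libraries labelled PkmΔDRE were at 0 at 24, 48 and 72 h, and the highest elsewhere was 0.680 CPM, in 1 library at 8 h.

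With TCDD, *Ahrr* was higher from 48 h on than in the first 12 h under both labels, with 1 exception at 72 h under the WT label. At 8 h the WT-labelled libraries held 0.189, 1.19, 1.43 and 2.00 CPM, and at 12 h 0.552, 1.77, 1.81 and 2.82 CPM. At 24 h they held 3.02, 4.74, 6.83 and 8.46 CPM, and at 120 h 16.5, 19.1, 19.4 and 19.6 CPM. Ranges of successive hours overlapped in this series except from 12 to 24 h, and, without replicate 4 at 72 h (0.0863 CPM, where the others held 13.6 to 20.6 CPM), from 48 to 72 h. In those labelled PkmΔDRE the 24 h libraries, at 1.15, 2.18, 2.76 and 2.88 CPM, were no higher than the 8 h libraries, at 1.09, 1.84, 2.55 and 3.72 CPM. At 48 h they held 4.502, 8.33, 9.96 and 10.2 CPM, at 72 h 12.4, 17.7, 21.4 and 21.7 CPM, and at 120 h 13.8, 14.1, 17.9 and 21.3 CPM. Here the ranges separated from 4 to 8 h, from 24 to 48 h and from 48 to 72 h, and overlapped at the other steps. The 24 h ranges of the labels did not overlap under TCDD, whereas from 48 h on they did. TCDD libraries lay wholly above vehicle libraries at 4 h and at each hour from 12 h on under the WT label, and at 8 h and at each hour from 24 h on under the PkmΔDRE label. Taking the hours in order from 2 to 120 h, that was so for 0.397%, 1.42%, 18.4%, 0.892%, 3.48%, 0.71%, 0.433%, 11.9% and 7.3% of all genes tested under the WT label. The shares under the PkmΔDRE label were 2.11%, 0.663%, 1.27%, 1.2%, 0.865%, 2.5%, 3.58%, 4.01% and 2.7%. For *Ahrr* at 72 h under the WT label the separation rests on 2 counts in each of 2 libraries. These were replicate 4 of TCDD at 0.0863 CPM, which stood apart, and replicate 3 of vehicle at 0.0854 CPM.

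The size of this rise is best given by pooled counts, since a fitted fold against near-zero vehicle libraries depends on the prior count. At 24 h under the WT label, 459 pairs fell on *Ahrr* with TCDD and 0 with vehicle, so that *Ahrr* was at least 198-fold higher, taking a floor of 3 counts over the vehicle group. That hour gave 161 and 0 pairs under the PkmΔDRE label, at least 60.98-fold higher, and 72 h gave 2014 and 0 pairs, at least 528-fold higher. At 96 h under the WT label 1391 pairs stood against 4, a ratio of 349.5 with a 95% counting interval of 136.2 to 1284, or 253.3 (98.7 to 930.9) without replicate 3 of vehicle. Under the PkmΔDRE label 1852 stood against 6, a ratio of 230.0 (105.5 to 627.5), but 5 of those 6 pairs came from replicate 4 of vehicle, and without it the ratio was 1186, with a lower bound of 212.6. Intervals and floors cover counting error only. Earlier ratios were smaller: 8 h gave 10.97 (5.10 to 28.1) under the WT label and 13.46 (7.11 to 28.7) under the PkmΔDRE label. At 2 h the ratio of 3.54 under the PkmΔDRE label, from 11 and 3 pairs, had an interval of 0.934 to 19.7, so a difference was not detectable at this depth.

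*Ahrr* was called at 24, 96 and 120 h under the WT label (adjusted p = 0.0022, 3.0e-06 and 6.5e-05 from edgeR), where 0.373%, 15.1% and 1.46% of all genes were called, respectively. It was called at 48, 72, 96 and 120 h under the PkmΔDRE label (adjusted p = 0.0026, 5.3e-05, 0.033 and 0.00094 from edgeR), where 0.404%, 1.13%, 0.0793% and 0.633% of genes were called. Without replicate 4 of vehicle the share at 96 h under the PkmΔDRE label was 2.25%, with 321 genes called in place of 11. The call at 96 h under the PkmΔDRE label was lost on leaving out any of the libraries but replicate 4 of vehicle, without which the adjusted p was 6.4e-06. Under the WT label, 48 h became a call without replicate 1 of vehicle (adjusted p = 0.0077 against 0.076 with it), and 72 h, where 2 counts in replicate 4 of TCDD kept it under the filter beside 290, 319 and 381 in the others, was called without that library (adjusted p = 0.0013) and with 1 fit over all libraries (adjusted p = 1.7e-05, edgeR with both). *Ahrr* was below the filter and not tested at 2, 4 and 12 h under either label and at 8 h under the WT label. At 8 and 24 h under the PkmΔDRE label it was tested without a call (adjusted p = 0.79 and 0.19 from edgeR). DESeq2 called both (adjusted p = 0.029 and 4.5e-07) and 48 h under the WT label (adjusted p = 1.3e-16). Over all genes DESeq2 called 37, 11 and 28 there. With no filter, edgeR also called them all (adjusted p = 0.00074, 0.0019 and 0.0046) and 8 h under the WT label (adjusted p = 0.0074). Of all genes, 170, 4, 3 and 4880 were called in that setting.

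*Tiparp* (ENSMUSG00000034640) encodes a mono-ADP-ribosyltransferase, also known as PARP7, that modifies AHR and lowers its activity and stability. Unlike *Ahrr* it was expressed without TCDD, at a median of 7.86 CPM per kilobase over all libraries, and it was high early in culture. In vehicle under the WT label the 2 h libraries held 17.2, 35.5, 58.6 and 81.4 CPM, the 24 h libraries 4.53, 7.37, 9.04 and 11.02 CPM, and the 120 h libraries 4.89, 5.83, 6.02 and 6.82 CPM. The 2 h range lay wholly above both later ones.

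Its response to TCDD was a rise at every hour under both labels in the fitted values, from 1.32 to 3.99 under the WT label and from 1.02 to 4.37 under the PkmΔDRE label on the log2 scale. At 8 h under the WT label, TCDD libraries held 44.04, 68.6, 89.4 and 117.3 CPM against 9.16, 10.7, 10.8 and 13.4 CPM, and the groups did not overlap (log2 fold change 2.99 ± 0.28 SE, adjusted p = 0.00037 from edgeR). At 96 h, 71.1, 71.2, 81.7 and 100.0 CPM stood against 4.07, 4.85, 5.77 and 7.10 CPM (3.99 ± 0.19, adjusted p = 2.8e-06 from edgeR). Calls under this label also came at 24 h (3.18 ± 0.27) and 120 h (3.89 ± 0.27), while 12 and 48 h gave groups that did not overlap but were not called by edgeR (2.21 ± 0.54 and 3.11 ± 0.48, adjusted p = 0.92 and 0.27), and DESeq2 called both (adjusted p = 0.0045 and 1.7e-07). The TCDD ranges at 8, 24, 96 and 120 h overlapped each other.

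*Tiparp* was called under the PkmΔDRE label at 72 h, where TCDD libraries held 61.4, 74.1, 104.4 and 109.1 CPM against 1.496, 3.83, 4.56 and 6.49 CPM (4.37 ± 0.42, adjusted p = 0.00033 from edgeR). At 120 h 51.9, 73.96, 103.7 and 107.5 CPM stood against 3.12, 3.22, 6.73 and 10.6 CPM (3.82 ± 0.46, adjusted p = 0.0056 from edgeR). Groups were also apart at 8 h (2.18) and at 48 h (2.62), without a call in edgeR, and DESeq2 called both (adjusted p = 3.7e-05 and 0.0047). Replicate 4 of vehicle decided the value at 96 h: it held 62.4 CPM where the other 3 held 3.77, 4.92 and 5.31 CPM, and without it the change went from 1.61 ± 0.91 (adjusted p = 0.70) to 3.65 ± 0.25 (adjusted p = 2.6e-05, edgeR with both). At 24 h the PkmΔDRE vehicle libraries ranged widely, from 2.18 to 32.5 CPM, and overlapped the TCDD range of 17.7 to 46.8 CPM (1.02 ± 0.67).

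The early hours were the ones with the highest single *Tiparp* values. At 2 h under the PkmΔDRE label, TCDD libraries held 77.7, 101.5, 134.6 and 225 CPM against 23.4, 25.9, 46.9 and 80.6 CPM in vehicle, with 1 TCDD library inside the vehicle range (1.80 ± 0.51, adjusted p = 0.28 from edgeR). Under the WT label replicate 4 held 7.97 CPM beside 97.9, 159.8 and 181 CPM in the other TCDD libraries at 2 h. Without it the change was 1.72 ± 0.44 (adjusted p = 0.072 from edgeR), still no call.

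**Figure D2:**
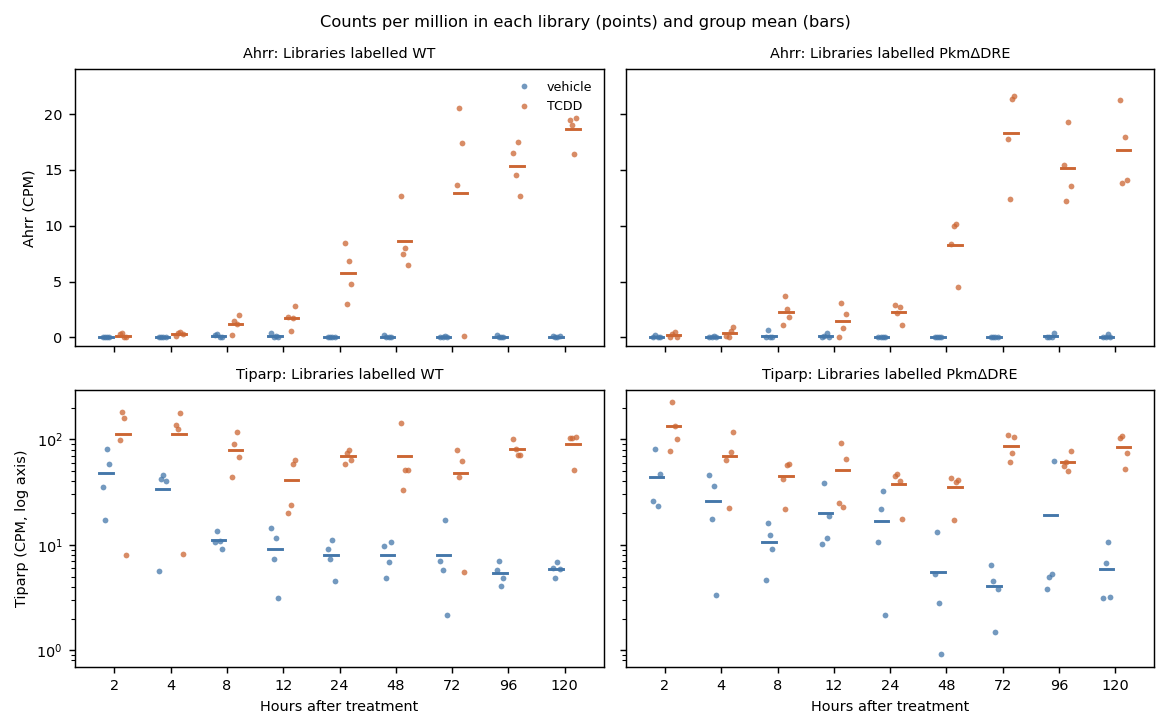
CPM of Ahrr (top row, linear y axis) and Tiparp (bottom row, log y axis) in each library over hours of treatment (x axis), for the WT label (left) and the PkmΔDRE label (right), with vehicle and TCDD in separate colours. Points are libraries and bars are means of 4 libraries. Ahrr leaves the baseline under TCDD and reaches 16.5 to 19.6 CPM at 120 h under the WT label, and Tiparp falls in vehicle from 2 to 24 h under that label. Under the PkmΔDRE label this fall of Tiparp was not called, and its TCDD libraries at 48 h, at 17.2 to 42.7 CPM, lie below those at 2 h.

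*Ahr* (ENSMUSG00000019256), the receptor gene itself, was measured at a median of 3.84 CPM per kilobase and was called under TCDD at no hour under either label, with an unadjusted p under 0.05 in 2 of 9 tests under the WT label and 1 of 9 under the PkmΔDRE label. At 2 h under the PkmΔDRE label the groups nevertheless did not overlap: TCDD libraries held 21.8, 24.0, 27.9 and 36.1 CPM, and vehicle libraries 12.5, 15.5, 15.6 and 15.6 CPM. The fitted change was 1.11 (adjusted p = 0.28 from edgeR), which DESeq2 called, with no share of all genes given for that call. Changes ran from -0.89 (72 h) to 0.67 (4 h) under the WT label and from -0.95 to 1.11 under the PkmΔDRE label, with no single direction over the hours. At 72 h under the WT label the TCDD libraries held 18.6, 25.3, 36.9 and 39.5 CPM and the vehicle libraries 25.6, 56.2, 61.4 and 79.8 CPM, which overlapped. Group means of *Ahr* spanned 12.2 ± 1.9 CPM (SD; PkmΔDRE, TCDD, 4 h) to 55.8 ± 22.5 CPM (WT, vehicle, 72 h).

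*Arnt* (ENSMUSG00000015522) encodes the partner with which both AHR and HIF1A pair to bind their elements. It was the steadiest member beside *Hsp90ab1*, with group means from 35.2 ± 9.0 to 64.2 ± 2.9 CPM (SD). At 96 h under the WT label, TCDD libraries held 57.1, 60.7, 62.5 and 66.9 CPM, all above the vehicle libraries at 46.9, 50.2, 51.4 and 54.2 CPM. That change of 0.38 ± 0.09 passed the adjusted p (0.0073 from edgeR) but stayed under the fold change threshold. At 120 h the groups were again apart, though not called (0.23 ± 0.11). Changes under the PkmΔDRE label ran from -0.51 to 0.34 with no call in edgeR or DESeq2. The lowest, at 12 h, came from TCDD libraries at 31.02 to 44.3 CPM that lay wholly below the vehicle libraries at 51.6 to 60.8 CPM (adjusted p = 0.51 from edgeR), an order that 3.02% of all genes had.

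*Hif1a* (ENSMUSG00000021109) encodes the oxygen-regulated subunit that competes with AHR for ARNT. It was called once, at 8 h under the WT label, where TCDD libraries held 20.4, 36.9, 39.2 and 58.2 CPM and vehicle libraries 8.27, 11.4, 18.02 and 20.8 CPM (1.53 ± 0.34, adjusted p = 0.0036 from edgeR). The lowest TCDD library lay just below the highest vehicle one. At 24 h under this label the groups were apart, at 53.3, 63.2, 71.02 and 83.4 CPM against 18.4, 34.4, 38.6 and 41.95 CPM, without a call in edgeR (1.10 ± 0.26, adjusted p = 0.15), though DESeq2 made one. That was not so under the PkmΔDRE label, where TCDD libraries held 19.6, 23.3, 25.9 and 39.9 CPM and vehicle libraries 8.90, 25.8, 56.8 and 83.5 CPM, a range that enclosed them.

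**Figure D3:**
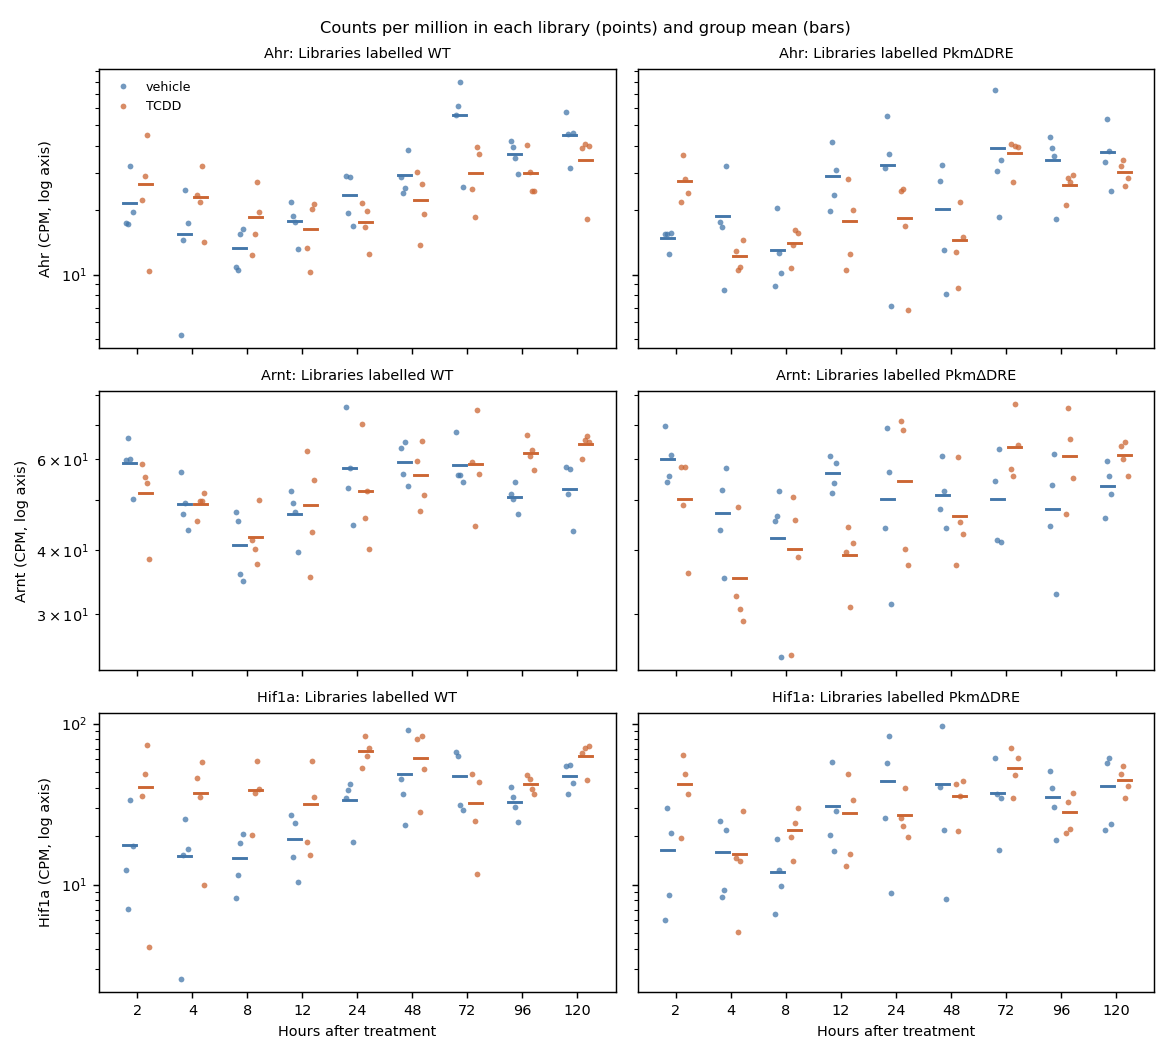
CPM of Ahr, Arnt and Hif1a (rows, log y axis) in each library over hours of treatment (x axis), for the WT label (left) and the PkmΔDRE label (right), with vehicle and TCDD in separate colours. Points are libraries and bars are means of 4 libraries. Vehicle and TCDD points of Ahr and Arnt are mixed at most hours, and the Hif1a group means run from 12.0 to 67.7 CPM.

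The chaperone genes were the most abundant members. *Hsp90ab1* (ENSMUSG00000023944), the constitutive cytosolic HSP90, had a median of 617 CPM per kilobase, the highest of the 8, and *Hsp90aa1* (ENSMUSG00000021270), the stress-inducible one, a median of 58.8 CPM per kilobase. *Ptges3* (ENSMUSG00000071072), whose product p23 holds HSP90 in its ligand-ready state, stood at 54.04 CPM per kilobase. *Hsp90ab1* did not respond to TCDD by the test at any hour, with changes from -0.17 to 0.15 under the WT label and from -0.37 to 0.22 under the PkmΔDRE label, and neither an unadjusted p under 0.05 nor a DESeq2 call at any hour.

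*Hsp90aa1* was called at 8 h and 96 h under the WT label. At 8 h, TCDD libraries held 157, 339.7, 363 and 462 CPM against 92.7, 119.4, 153 and 158 CPM (1.47 ± 0.28, adjusted p = 0.0021 from edgeR), with the lowest TCDD library inside the vehicle range. At 96 h, 349, 359, 401 and 418 CPM stood above 205, 238, 251 and 301 CPM (0.71 ± 0.12, adjusted p = 0.0019 from edgeR). Groups labelled PkmΔDRE overlapped at 96 h and leaned the other way, at 129.8, 137.6, 218 and 319 CPM with TCDD and 243, 271, 412 and 464 CPM with vehicle. The difference of the response between labels at this hour was -1.53 ± 0.40 (adjusted p = 0.25 from edgeR), and it was called by DESeq2 (adjusted p = 0.044) and by edgeR without replicate 4 of TCDD under the PkmΔDRE label (-1.90, adjusted p = 0.013).

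*Ptges3* was called at 8 h under the WT label: TCDD libraries held 130.3, 158, 177 and 264 CPM, all above the vehicle libraries at 68.97, 80.3, 89.8 and 106.6 CPM (1.21 ± 0.21, adjusted p = 0.0016 from edgeR). At that hour under the PkmΔDRE label the vehicle libraries were themselves at 64.7, 179, 194 and 253 CPM and the TCDD libraries at 77.7, 145, 172.5 and 234 CPM, which overlapped. At 120 h under the WT label the groups were apart again, at 132.7 to 143.2 CPM against 92.4 to 109.2 CPM, a small change of 0.37 ± 0.09 that was not called (adjusted p = 0.080 from edgeR).

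**Figure D4:**
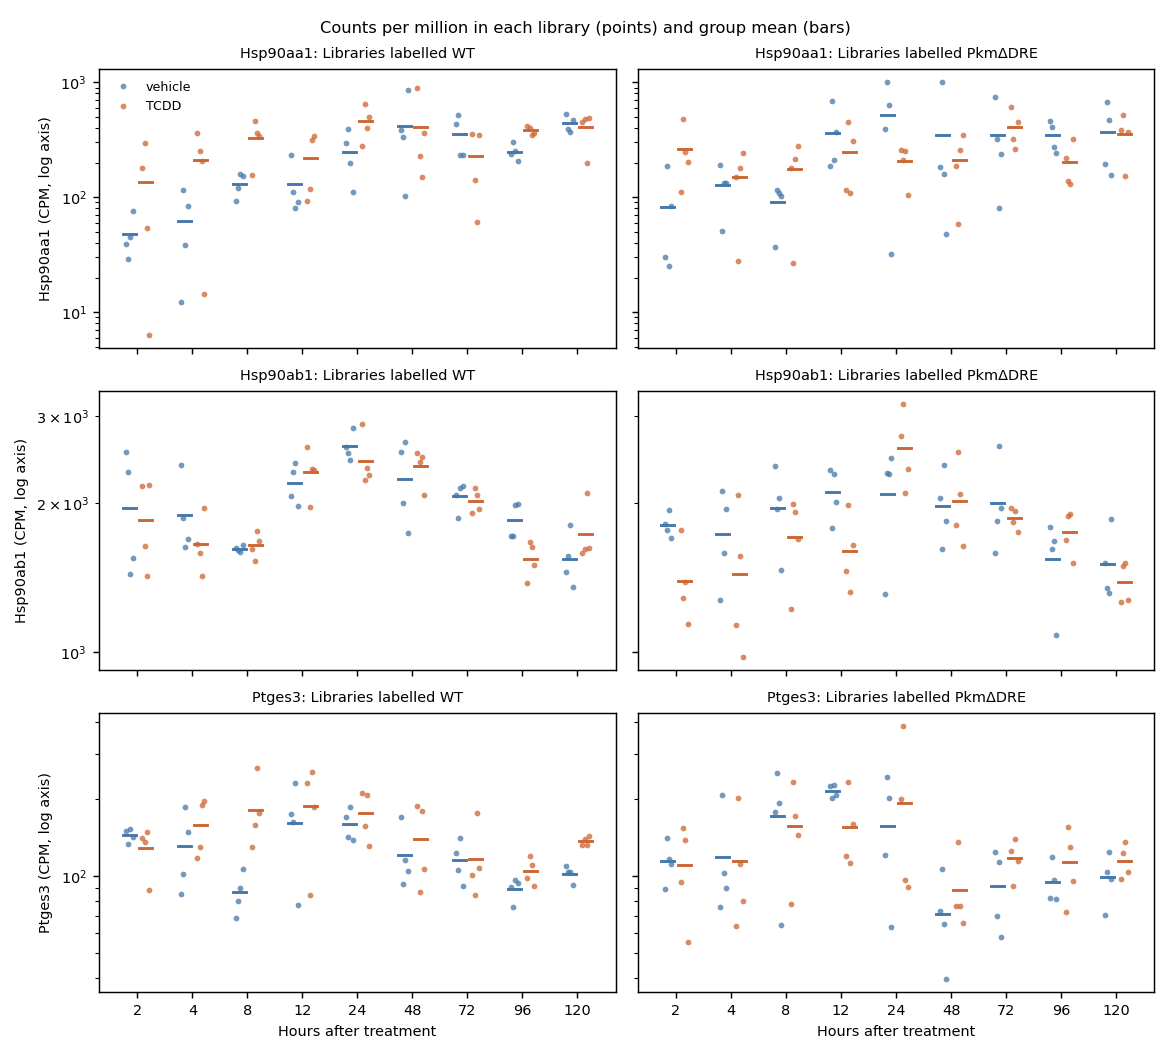
CPM of Hsp90aa1, Hsp90ab1 and Ptges3 (rows, log y axis) in each library over hours of treatment (x axis), for the WT label (left) and the PkmΔDRE label (right), with vehicle and TCDD in separate colours. Points are libraries and bars are means of 4 libraries. Hsp90aa1 spreads within groups up to a mean of 515 ± 408 CPM (SD; PkmΔDRE, vehicle, 24 h), whereas Hsp90ab1 stays between group means of 1384 and 2607 CPM.

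The 4 calls at 8 h under the WT label came in a comparison where 37.4% of all genes tested were called, so 4 of the 7 members tested is read against that share. There, the share of unique pairs on no gene was 4.89% to 6.00% in the vehicle libraries and 8.36% to 21.9% in the TCDD libraries. With each library's trend of expression on gene GC content removed, an alternative added after the data were seen, *Tiparp* remained called (1.94 ± 0.22, adjusted p = 0.00094 from edgeR) and so did *Hsp90aa1* (0.73 ± 0.22, adjusted p = 0.029). *Ptges3* then fell under the fold change threshold (0.41 ± 0.14) and *Hif1a* missed the adjusted p (0.60 ± 0.23, adjusted p = 0.068). The call of *Hsp90aa1* at 8 h was lost with 1 fit over all libraries (1.35, adjusted p = 0.10), and that at 96 h with the GC trend removed (0.42), with a covariate for the share of pairs off genes (0.57) and with 1 fit over all libraries (0.67).

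Within groups, several members moved together with this GC trend. For each library the slope of its deviation from the group mean on gene GC content was taken, and set against the member's own deviation in log2(CPM + 0.5) over all libraries. *Hif1a* followed it most closely (Pearson's r = -0.864, Spearman's rho = -0.860, and r = -0.843 without the 2 libraries farthest from the median slope). *Hsp90aa1* (r = -0.799, rho = -0.768), *Ahr* (r = -0.794, rho = -0.771) and *Tiparp* (r = -0.691, rho = -0.724) came next, with r = -0.762, -0.763 and -0.643 without the 2 farthest libraries. All of these permutation p-values were 1e-05, the smallest that 100000 permutations can give (adjusted 1.78e-05 over 16 relations). The slope was fitted on the genes' own deviations, members included, so a gene of low GC content leans to a negative r by construction. The permutations also ignored the groups. These p-values therefore cannot set the members apart from other genes of like GC content, for which no r is given. *Ahrr* was loosely related (r = -0.215, rho = -0.316), and *Hsp90ab1*, the member of highest GC content (51.03%), leaned the other way (r = 0.195, rho = 0.215). The part of this trend in the response to TCDD was not tested beyond the removal given above.

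**Figure D5:**
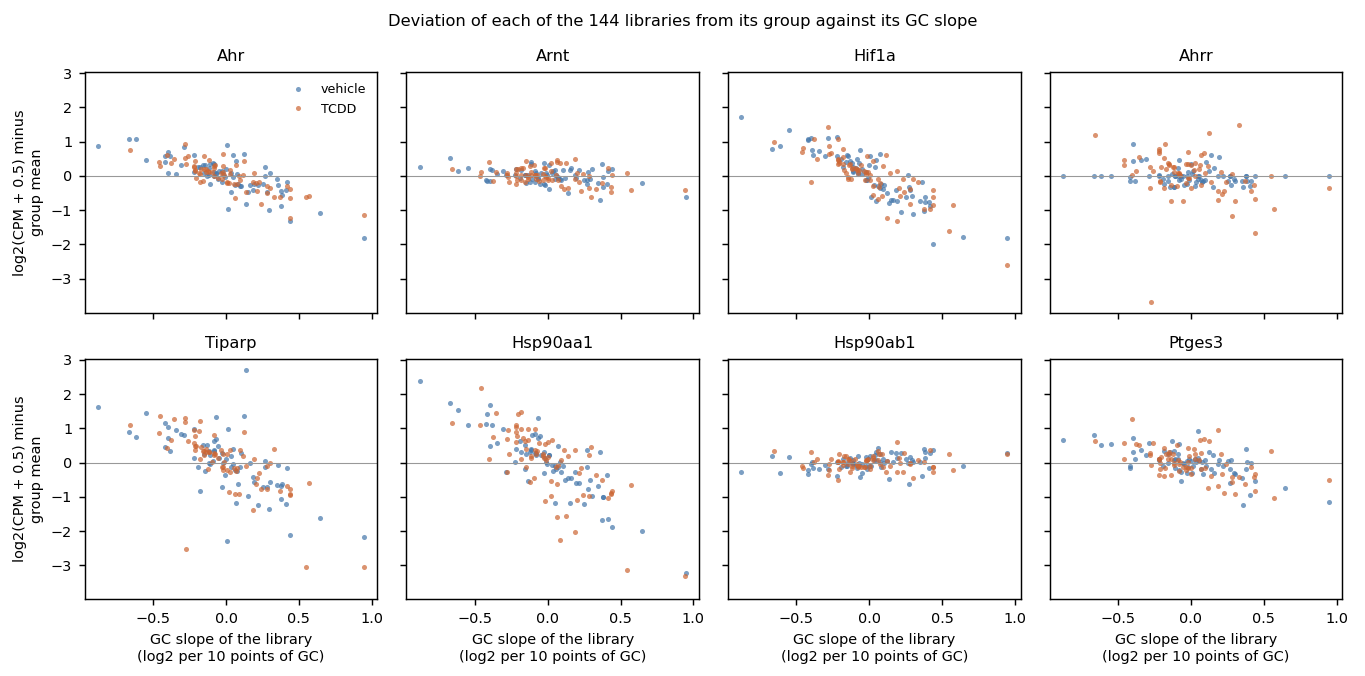
Deviation of each member from its group mean (y axis, log2(CPM + 0.5)) against the GC slope of the library (x axis, log2 units per 10 points of GC content, centred on the group) for every library, 1 panel per gene. Points fall from left to right for Hif1a (r = -0.864), Hsp90aa1 (r = -0.799) and Ahr (r = -0.794), and rise slightly for Hsp90ab1 (r = 0.195).

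Over time in culture without TCDD, 6 of 14 tests of members were called under the WT label and 1 of 14 under the PkmΔDRE label. In these comparisons 15% to 47.9% of all genes were called, so the members are read against those shares. From 2 to 24 h in vehicle under the WT label, where 47.9% of genes were called, *Tiparp* fell by 2.69 on the log2 scale (SE 0.44, adjusted p = 0.00033 from edgeR) and *Hsp90aa1* rose by 2.29 (SE 0.39, adjusted p = 0.00047), while the other 5 members tested were not called. *Hsp90aa1* went from 29.1, 38.9, 45.3 and 76.2 CPM to 111.5, 197, 294 and 394 CPM, and the groups did not overlap. Under the PkmΔDRE label (30.7% of genes called) *Hsp90aa1* was the only member called (2.96 ± 0.92, adjusted p = 0.032 from edgeR), and that call was lost without replicate 1, 3 or 4 of 2 h or replicate 1, 2 or 3 of 24 h. *Tiparp* there was not called (-1.09 ± 0.70, adjusted p = 0.25 from edgeR), though it was with the GC trend removed (-2.14, adjusted p = 0.0012) and with the covariate for pairs off genes (-2.36, adjusted p = 0.029). The difference between the labels in this fall was not tested.

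From 24 to 120 h in vehicle under the WT label (45.5% of genes called), *Ahr* rose by 1.00 ± 0.23 (adjusted p = 0.0049 from edgeR), from 16.9, 19.5, 28.7 and 29.1 CPM to 31.7, 45.7, 45.8 and 57.5 CPM, with every late library above every early one, a call lost with the covariate for pairs off genes (0.46, adjusted p = 0.46 from edgeR). *Hsp90ab1* fell by 0.70 on the log2 scale (SE 0.15, adjusted p = 0.0035), from 2451, 2528, 2606 and 2843 CPM to 1354, 1452, 1566 and 1808 CPM. *Ptges3* fell by 0.59 (SE 0.13, adjusted p = 0.0040), a call lost without replicate 1 or 3 of 24 h or replicate 2, 3 or 4 of 120 h, and *Hsp90aa1* rose by 0.87 (SE 0.33, adjusted p = 0.046), a call lost without any 1 of the libraries but replicate 2 of 24 h. Per kilobase, *Hsp90aa1* took 2.02% ± 1.23 (SD) of the sum of both HSP90 genes at 2 h, 6.81% ± 3.27 at 24 h and 18.1% ± 3.97 at 120 h in vehicle under the WT label. With the PkmΔDRE label the shares were 3.34% ± 3.02, 15.5% ± 10.2 and 16% ± 10.2. None of the 7 members tested was called from 24 to 120 h under that label, where 15% of genes were called and 0 members had an unadjusted p under 0.05 in edgeR or a call in DESeq2.

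These culture changes are relative to the scaling. With total counts and no scaling factor the median of all genes from 2 to 24 h moved from 0.06 to 0.95 under the WT label and from 0.36 to 1.09 under the PkmΔDRE label, and the genes called under the WT label went from 2938 higher and 3056 lower to 6835 higher and 1471 lower. *Arnt* then turned from -0.13 to 0.76 under the WT label, and with *Ptges3*, *Ahr*, *Hif1a* and *Hsp90ab1* it became a call. From 24 to 120 h that scaling moved the median to 0.52 under the WT label, and the falls of *Hsp90ab1* (-0.26) and *Ptges3* (-0.16) were no longer called. Over the same course the sum of the 8 hepatocyte markers went from a median of 178300 CPM at 2 h (range 111200 to 255600) to 33940 at 24 h (19200.0 to 44690) and 8146 at 120 h (2859 to 16060), over both labels and treatments. The 6 macrophage markers fell from 183 to 31.5 CPM and the 6 endothelial markers from 372 to 80.96 CPM, while the 6 stellate or fibroblast markers rose from 10.2 to 59.7 CPM and the 4 bile duct markers from 99.5 to 621 CPM. These are sums of uneven genes. The highest library held 1163 CPM of *Spp1* but 7.65 CPM of *Epcam* among the bile duct markers. Among the stellate or fibroblast markers it held 124.9 CPM of *Col1a1* but 3.49 CPM of *Lrat*, which was at 0 in 35 libraries. Changes of single markers are not given. Of the macrophage markers, *Ptprc*, the defining leukocyte marker, was at 0 in 39 libraries. *Clec4f* was at 0 in 7, *Adgre1* and *Marco* in 2 each, and *Cd68* and *Csf1r* in 0. In such bulk libraries fewer cells of a type and less RNA per cell cannot be told apart, and the part of the markers in the members' changes was not tested.

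Between the labels, no member was called in vehicle at any hour: 0 of 63 tests passed in edgeR, 7 had an unadjusted p under 0.05 and DESeq2 called 1. Of all genes, 3.68% were called at 12 h, 0.0576% at 8 h and 0% at the other hours. The value that DESeq2 called was *Hsp90aa1* at 12 h, higher under the PkmΔDRE label (1.57 ± 0.48, adjusted p = 0.092 from edgeR and 0.010 from DESeq2). At that hour DESeq2 called 1527 of all genes where edgeR called 466. *Ptges3* at 8 h was higher under that label by 1.00 ± 0.31 (adjusted p = 0.37 from edgeR).

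The difference of the TCDD response between labels was called for 0 of 70 tests of members in edgeR, with 8 at an unadjusted p under 0.05 and 1 call by DESeq2, and for 0.00715% of all genes at 48 h, 0.00695% at 72 h and 0% at the other hours. The DESeq2 call was *Hsp90aa1* at 96 h, given above with its limits. At 24 h *Tiparp* differed by -2.11, *Hsp90aa1* by -2.36 and *Hif1a* by -1.87, all toward a smaller response under the PkmΔDRE label (adjusted p = 0.79 for each from edgeR). All 3 became calls without replicate 4 of vehicle under the PkmΔDRE label (-2.46, -2.74 and -2.20, adjusted p = 0.027 for each from edgeR), whereas the *Tiparp* value went to -0.9996 with the GC trend removed and -0.39 with the covariate for pairs off genes. That replicate had the highest GC slope of all libraries (0.948). The share of all genes called without it is not given, so these 3 calls have no background. At 96 h *Tiparp* differed by -2.36 (adjusted p = 0.35 from edgeR), or by -0.26 without the libraries that stood apart. Differences of *Ahrr* ran from -1.39 to 3.38 with standard errors of 1.33 to 1677 and adjusted p-values of 0.81 or more from edgeR.

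Other genes of the pathway were counted whole, by lists set with earlier results of these data known. Their counts are read against all genes, of which 5.98% of tests were called under the WT label and 0.281% under the PkmΔDRE label, and 37.4% and 15.1% at 8 and 96 h under the WT label. The target battery of 12 genes responded under both labels, with 28 calls higher and 1 lower in 92 tests under the WT label and 30 higher and 0 lower in 88 under the PkmΔDRE label (31.5% and 34.1% of tests). *Cyp1a1* and *Cyp1a2*, the xenobiotic-metabolizing cytochromes P450, were each called in 10 of the 18 comparisons, *Selenbp1* in 9 and *Cyp1b1* in 8. The 17 co-chaperone genes gave 7 calls higher and 3 lower in 153 tests under the WT label (6.54%, near the share of all genes), all at 8 or 96 h, and 0 of 153 under the PkmΔDRE label (9 at an unadjusted p under 0.05, and 1 DESeq2 call). Their direction was mixed at 8 h under the WT label, with 4 higher, 3 lower and a median of -0.35 on the log2 scale against 0.00 over all genes. *Hsp90b1*, the HSP90 of the endoplasmic reticulum, rose by 1.73 ± 0.24, and the co-chaperones *Ppid* (1.18), *Dnaja1* (1.11) and *Hspa4* (1.33) also rose. Among the lower ones were the kinase co-chaperone *Cdc37* (-0.83) and the immunophilin *Fkbp4* (-0.76), both named after their values were seen.

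The 17 bHLH-PAS relatives, the protein family of AHR and ARNT, gave 9 calls higher and 0 lower over the 9 hours under the WT label (8.49% of tests) and 2 higher and 1 lower under the PkmΔDRE label (2.91%). At 8 h under the WT label 6 of the 11 tested were called. *Per2*, a clock repressor, was called in 5 comparisons, at 8, 96 and 120 h under the WT label (0.84, 1.605 and 1.05) and at 72 and 120 h under the PkmΔDRE label (1.53 and 1.15). *Clock*, its activator, was higher at 8 h (1.47) and 96 h (0.84) under the WT label, and *Hif3a*, an inhibitory HIF subunit, was lower at 120 h under the PkmΔDRE label (-2.30). The 21 co-regulators and turnover factors gave 11 higher and 3 lower of 189 under the WT label (7.41%, near the share of all genes) and 0 of 189 under the PkmΔDRE label (13 at an unadjusted p under 0.05, and 4 DESeq2 calls). Of the higher calls, 10 fell at 8 h, where 2 were lower, among them *Rb1* (1.69), *Cul4b* (1.502), *Crebbp* (1.44) and *Nrip1* (1.24).

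Of the 15 regulators and targets of HIF, 4 calls were higher and 3 lower over the 9 hours under the WT label (5.93% of tests, near the share of all genes), and 0 under the PkmΔDRE label (13 at an unadjusted p under 0.05, and 1 DESeq2 call). *Vegfa*, the vascular growth factor, was higher at 8 h (0.74) and 96 h (0.64), whereas *Egln3*, an oxygen-sensing hydroxylase (-0.85), and *Slc2a1*, a glucose transporter (-0.79), were lower at 96 h. Culture time moved this list further: from 2 to 24 h in vehicle 10 of the 13 tested were lower and 0 higher under the WT label, where 47.9% of all genes were called, with a median of -2.08 against 0.06 over all genes. Under the PkmΔDRE label 6 of 13 were lower and 0 higher, where 30.7% of all genes were called, with a median of -1.04 against 0.36. *Egln3* fell by 5.63 and by 4.84 on the log2 scale, respectively, while *Hif1a* itself did not fall (0.81 ± 0.42 and 1.73 ± 0.70, adjusted p = 0.12 and 0.080 from edgeR). The 10 mono-ADP-ribosyltransferases related to *Tiparp* gave 3 higher and 1 lower of 87 under the WT label (4.6%, below the share of all genes) and 0 of 87 under the PkmΔDRE label (6 at an unadjusted p under 0.05, and 2 DESeq2 calls). *Parp9* (1.59), *Parp14* (1.33), *Parp4* (0.84) and *Parp10* (-0.65) were called at 8 h, 4 of the 9 tested there.

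The members' patterns over the 36 group means were set beside those of 11454 expressed genes by Pearson's r, given as a description since the groups share the scaling and the hours in culture. *Ahrr* was most like *Cyp1b1* (r = 0.982), then *Dclk3* and *Neurl3* (0.911 each). *Tiparp* was most like *Slc46a3* (0.902), *Cyp1a2* (0.873) and *Xdh* (0.862). *Hsp90aa1* was most like *Mbnl1* (0.978), *Kif5b* and *Slmap* (0.977 each), and *Hif1a* was most like *Tm9sf3* (0.958), *Man2a1* (0.944) and *Baz1a* (0.942). *Ptges3* was most like *Riok3* (0.913), *Denr* (0.901) and *Ttc17* (0.898), and *Hsp90ab1* most like *Ciao2a* (0.9003), *Vti1b* (0.894) and *Rpl5* (0.878). *Ahr* was nearest to *Tead1* (0.872), *Wsb1* (0.871) and *Cttnbp2nl* (0.869), and *Arnt* to *Sarnp*, *Ing2* (0.830 each) and *Fbxo8* (0.828), the loosest likeness of the 8. Among the members themselves, *Hsp90aa1* and *Hif1a* ran together both over the group means (0.860) and within groups (0.836). Within groups both also followed the GC slope of the library (r = -0.799 and -0.864), as did *Ahr* and *Tiparp*. There *Ahr* ran with *Hif1a* (0.754) and *Hsp90aa1* (0.627), and *Tiparp* with *Hsp90aa1* (0.694) and *Hif1a* (0.683). The part of the GC trend in these values was not tested.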

How the data were processed

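Primary mouse hepatocytes were profiled by RNA-Seq in 36 groups of 4 libraries. The authors trimmed read pairs (Trimmomatic 0.39), aligned them to GRCm39 (STAR 2.7, per the processing notes) and deposited raw counts of uniquely mapped pairs per gene, with no normalization. The unstranded counts were used, so overlapping genes cannot be told apart. The 4 lines that name no gene held 16.8% to 48.0% of the pairs and were left out.

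Groups came from the labels. Symbols, exon lengths and GC content came from GENCODE M21 (GRCm38), by gene identifier. Counts were scaled by TMM, filtered by filterByExpr (count minimum 10, total minimum 15) and tested by the robust quasi-likelihood test of edgeR 4.0.16 (R 4.3.3), unpaired, over all genes, in 18 TCDD, 4 culture, 9 label and 9 interaction comparisons. The thresholds were 0.05 for the adjusted p and 1.5 for the fold change (none for the interaction). Printed CPM use TMM library sizes across all libraries.

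The 8 genes and the lists were chosen with earlier results of these data known. Named genes were the members, Pkm and Cyp1a1 as checks, at most 4 genes of each list (most calls, then largest median change), and for each member the 3 genes of highest correlation of group means with a mean of at least 1 CPM. Alternatives were RLE scaling, DESeq2 1.42.0, no filter, a covariate for the share of pairs off genes, a posterior probability of at least 0.8 (limma 3.58.1), 1 fit over all libraries (of a label, or of both for the label and interaction comparisons), no fold change threshold and leaving out each library. Added after the data were seen were the removal of the GC trend, total counts with no scaling factor, and leaving out the 6 libraries that stood apart. 1 gene of the co-chaperone list is not reported here by name. Tests were checked on simulated counts. Python 3.11.15, scipy 1.17.1 and matplotlib 3.10.9 were used for tables, permutations and figures.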

Additional observations from a re-analysis of the deposited data

Results flagged for a closer look

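In 269 groups of 4 libraries, 1 for each member and group in which at least 1 library held 10 counts of the gene, the highest or lowest library was compared with the nearest of the others, and 17 had a gap, relative to the group's range, above Dixon's critical value. Chance flags about 1 in 20 such groups. Replicate 3 of TCDD at 120 h under the WT label accounted for 4 of these, with the lowest Ahr (18.3 CPM), Tiparp (50.7 CPM) and Hsp90aa1 (199 CPM) and the highest Hsp90ab1 (2095 CPM) of its group. Replicate 2 of TCDD at 48 h under the PkmΔDRE label accounted for 2, with Tiparp at 17.2 CPM and Ptges3 at 135.6 CPM. Replicate 4 of vehicle at 96 h under the PkmΔDRE label, which matched another hour best, had Tiparp at 62.4 CPM.

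The other flags were single ones. For Ahr they were replicate 3 (WT, vehicle, 2 h) at 32.2 CPM, replicate 3 (PkmΔDRE, vehicle, 2 h) at 12.5 CPM and replicate 2 (PkmΔDRE, TCDD, 72 h) at 27 CPM. For Tiparp they were replicate 1 (WT, vehicle, 4 h) at 5.67 CPM and replicate 1 (WT, TCDD, 48 h) at 143.01 CPM. For Hsp90aa1 they were replicate 1 (PkmΔDRE, vehicle, 8 h) at 36.6 CPM and replicate 2 (PkmΔDRE, vehicle, 48 h) at 1007 CPM. Hsp90ab1 was at 1307 CPM in replicate 1 (PkmΔDRE, vehicle, 24 h), Arnt at 67.7 CPM in replicate 1 (WT, vehicle, 72 h), and Ahrr at 0.680 CPM in replicate 2 (PkmΔDRE, vehicle, 8 h).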

How the results depend on the processing

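Calls of members are counted over all hours of a family of comparisons. Under the WT label the 11 TCDD calls became 10 to 15 under the alternatives, and 11 to 13 without 1 library. Under the PkmΔDRE label the 6 calls became 12 with DESeq2 and 13 with no filter on low counts, and 5 to 10 without 1 library. The 3 culture calls from 2 to 24 h became 5 with no filter, 1 fit over all libraries or a posterior probability, 12 with total counts and no scaling factor, and 2 to 5 without 1 library. The 4 calls from 24 to 120 h became 2 with no filter or 1 fit, 1 with a covariate for the share of pairs off genes, 6 with the GC trend removed, and 2 to 4 without 1 library. The 0 calls between labels became 1 with DESeq2, no filter, the covariate or a posterior probability, and the 0 differences of response became 1 with DESeq2 or no filter. Without 1 library these were 0 to 1 and 0 to 3. The cause was not tested. Called values changed sign in 0 of 140 TCDD and 0 of 56 culture values under the alternatives, and uncalled TCDD values in 62 of 993.

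Over all genes, calls at 8 h under the WT label went from 4640 (63.6% higher) to 2498 (51.9% higher) with the GC trend removed and 3794 (79.9% higher) with total counts, and those at 96 h from 2085 (66.9% higher) to 1344, 1170 and 120 with the covariate, the GC trend removed and 1 fit over all libraries (50.97%, 51.8% and 54.2% higher). Those from 24 to 120 h under the WT label went from 6339 to 1347 with the covariate. At 120 h under the WT label DESeq2 called 596 (46.5% higher) against 209 (65.5% higher), and under the PkmΔDRE label 48 h went from 52 to 222, 72 h from 154 to 437 and 120 h from 91 to 307. At 96 h under that label the 11 calls (100% higher) became 147 with DESeq2, 321 (49.2% higher) without the library that stood apart and 509 (17.9% higher) with 1 fit. The posterior probability was not run for the differences of response. Ahrr was limited by depth at early hours, where groups held few or 0 counts. No paired analysis was possible because the labels give no replicate number, animal or batch that groups share. In the order of deposit, replicates 1 and 2 had more unmapped pairs (9.99% to 23.6%) than replicates 3 and 4 (5.83% to 10.4%) in each of the 8 groups from 2 to 12 h under the WT label, and the part of that in the results was not tested.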
